A study of Homo sapiens with 21 samples.

Results

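The transcripts described here are those of 52 genes of synaptic vesicles and neuroendocrine granules, chosen by gene symbol from the 60728 gene identifiers of an RNA-Seq table of SK-N-BE(2), an established MYCN-amplified neuroblastoma cell line. The cells were transduced with lentiviral shRNAs against ARID1A, ARID1B or both, and polyadenylated RNA was sequenced after 72 h in 21 libraries, 3 in each of 7 conditions. The conditions carry the labels Control (a hairpin that silences neither gene), shARID1A.2 and shARID1A.4, shARID1B.2 and shARID1B.3, and shARID1A/B.2.3 and shARID1A/B.4.2, where the numbers name the hairpins. ARID1A and ARID1B are alternative large subunits of the BAF form of the SWI/SNF chromatin remodeler. The comparisons ask how the RNA of the secretory machinery differed from the control, and between labels, once these subunits were silenced. All conditions come from 1 cell line, and silencing by hairpins lowers a transcript without removing it.

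The targeted transcripts did not follow all labels, so conditions are named below by their labels, and each value belongs to the libraries so labelled. The normalised value used throughout is a gene's read number over the size factor of its library. ARID1A was 6097 to 6463 in the control libraries and ARID1B 5791 to 5804. Both were low in the libraries labelled shARID1A.2 (ARID1A 2109 to 2169, ARID1B 2224 to 2252) and shARID1A.4 (2157 to 2289 and 3065 to 3126). ARID1A alone was low in those labelled shARID1B.2 (ARID1A 1882 to 1962, ARID1B 4913 to 5056) and shARID1B.3 (2449.7 to 2507 and 6038 to 6182). In those labelled shARID1A/B.2.3 (ARID1A 5510.3 to 5752, ARID1B 2540.5 to 2651) and shARID1A/B.4.2 (5352 to 5589 and 1881 to 1955) the low transcript was ARID1B. Smaller differences that also passed the test were a fall of ARID1B by 0.21 on the log2 scale in shARID1B.2, a rise of ARID1B by 0.07 in shARID1B.3 and falls of ARID1A by 0.16 and 0.21 in shARID1A/B.2.3 and shARID1A/B.4.2. What a label meant for the cells therefore cannot be read from its name, and every direction below rests on these labels as written.

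Synaptic vesicles are small vesicles that store classical transmitters and are recycled at nerve terminals. Neuroendocrine cells, among them chromaffin cells and the sympathoadrenal tumours related to them, also make large dense-core granules, in which granins condense with peptide hormones and amines and convertases cut the precursors. Both kinds of vesicle are primed by UNC13, RIM and CADPS proteins and fuse through SNARE proteins when calcium binds a synaptotagmin, with complexins and RAB3 proteins acting on the same step.

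The libraries held 27954334 to 41077638 reads on genes, with a median of 34973565. The markers of sympathoadrenal neuroblasts PHOX2A, HAND2, GATA2, GATA3, ISL1, DBH, TH and MYCN were detected in all 21 libraries, the lowest being DBH at 107.2. Of the markers of other cell types, SOX10 and KRT5 were at 0 in all libraries and PRRX1 and PECAM1 did not exceed 2.99 and 2.81. The summed fibroblast markers, almost all COL1A1, DCN and PDGFRA, lay between 2972 and 3329 in shARID1A/B.4.2 and between 18578 and 19872 in shARID1B.2, with 16333 to 16560 in the control. The summed glial markers ranged from 124.5 to 145.8 in the control and from 561 to 603 in shARID1A.2. Over all libraries the summed epithelial markers lay between 59.4 and 227.6, the endothelial between 0.97 and 71.7 and the leukocyte markers, nearly all PTPRC, between 57.3 and 427. These lists differed between conditions, and their part in the results was not tested. All libraries are of 1 cell line, so these lists do not measure numbers of such cell types. In such bulk samples, fewer cells with a transcript and less RNA per cell cannot be told apart.

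Of the 52 genes, 49 passed the filter on low counts. SYT6, a synaptotagmin, lay between 0 and 8.1 over all 21 libraries, CADPS2, a priming factor, between 0 and 6.22, and PCSK2, a prohormone convertase, between 0 and 14.4, and these 3 are described no further. SYNPR and SCGN had been picked for their values and are described without a test. The other 47 were tested with limma over all 18584 genes kept by the filter. Below, a gene is said to rise, fall or change where the Benjamini-Hochberg adjusted p was under 0.05.

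In the control, 4 of the 6 granins were the most abundant members per length. The normalised value per kb of exon was 14392 for SCG2, 6297 for CHGA, 4036 for CHGB and 1677 for VGF, which put SCG2 at percentile 99.8 of the genes tested. Among the vesicle genes the highest were SYT11 (1352 per kb), SYPL1 (1032 per kb) and SV2A (699.6 per kb), and the granule carboxypeptidase CPE stood at 1140.1 per kb. The other granins, SCG3 (792 per kb) and SCG5 (479.8 per kb), lay below SYT11, CPE and SYPL1. SYNPR (2.43 per kb), SYN3 (3.24 per kb) and SV2B (0.0889 per kb) were the lowest of the 49. Of these, 14 lay above the 75th percentile and 10 below the 25th percentile of the genes tested. Paralogues of 1 family differed widely in level. For the synaptotagmins the order was SYT11, SYT1 (429 per kb), SYT9 (425 per kb) and SYT4 (139 per kb), with the other 7 synaptotagmins tested between 11 and 28.5 per kb.

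**Figure D1:**
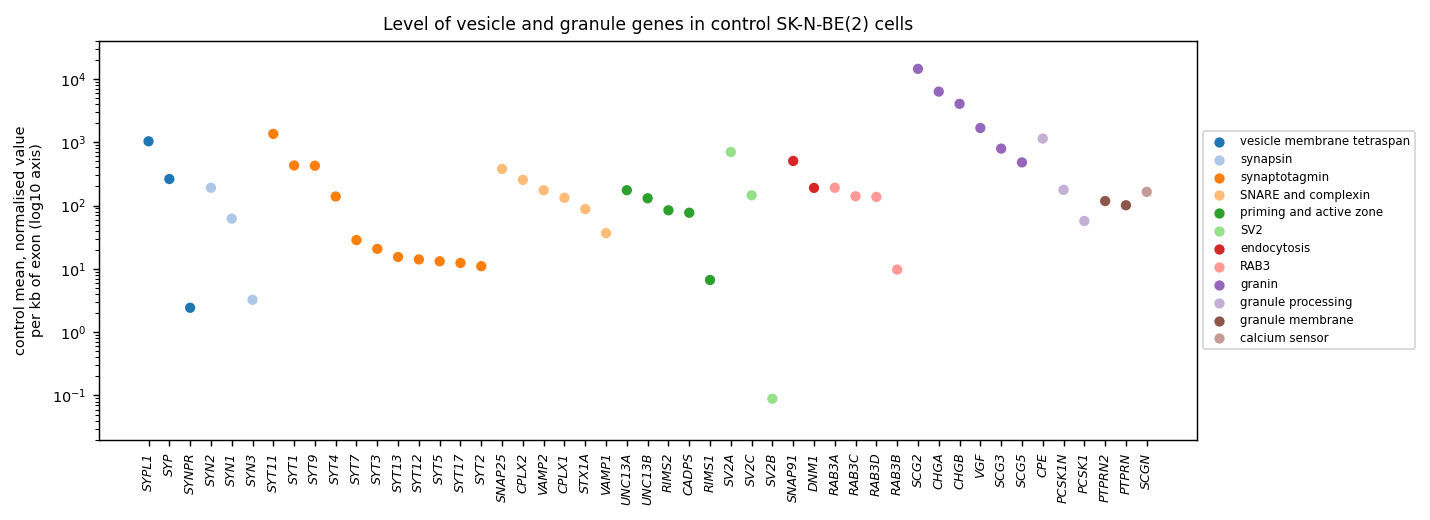
Mean normalised value per kb of exon in the 3 control libraries for the 49 genes that passed the filter, on a log10 axis, grouped and coloured by role. Granins reach 14392 per kb, while SV2B stands at 0.0889 per kb.

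Most genes of the set changed in each silenced condition, as did most genes of the transcriptome, and the directions were mixed. In brackets after each count of the 47 genes is the share of all 18584 genes tested that met the same call. In the libraries labelled shARID1A.2, 39 (76.1%) changed, 23 up (37.9%) and 16 down (38.2%). Changes over 2-fold were found for 15 (24.8%), 8 up (14.1%) and 7 down (10.7%). In the libraries labelled shARID1A.4, 42 (73.6%) changed, 27 up (37%) and 15 down (36.6%). Of these, 12 (21.4%) changed over 2-fold, 9 up (9.32%) and 3 down (12%).

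With ARID1A alone low, falls outnumbered rises in the set, by margins that depended on the scaling. For shARID1B.2, scaling to total reads gave 19 up and 20 down, and the upper quartile gave 18 up and 20 down. For shARID1B.3, scaling to total reads gave 18 up and 20 down, and by the upper quartile they were equal at 18 each. In shARID1B.2, 43 (65.6%) changed, 17 up (31.6%) and 26 down (34%). Changes over 2-fold were found for 9 (12%), 3 up (6.86%) and 6 down (5.12%). In shARID1B.3, 38 (63.9%) changed, 17 up (31.9%) and 21 down (32%). Of these, 7 (11.8%) changed over 2-fold, 2 up (5.2%) and 5 down (6.58%).

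With ARID1B low, rises outnumbered falls, as in the libraries with both transcripts low. In shARID1A/B.2.3, 39 (69.2%) changed, 23 up (35.2%) and 16 down (34%). Changes over 2-fold were found for 12 (16.1%), 8 up (7.04%) and 4 down (9.1%). In shARID1A/B.4.2, 43 (71.2%) changed, 27 up (35.1%) and 16 down (36.1%). Of these, 11 (18.4%) changed over 2-fold, 7 up (10.3%) and 4 down (8.14%). The median log2 difference of the 47 genes was 0.09, 0.41, -0.17, -0.09, 0.10 and 0.29 in the order of the conditions above, and that of all genes lay between 0.01 and 0.02. The 6 comparisons share their 3 control libraries. Across them, 6 of the 47 genes rose in all 6 conditions (SYN1, SYN3, SYT5, CPLX1, RAB3A and SCG5). Another 3 fell in all 6 (SYT11, DNM1 and SCG2), and 27 rose in at least 1 condition and fell in at least 1 other. The same counts were not made over all genes, so whether they are particular to the set was not tested.

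**Figure D2:**
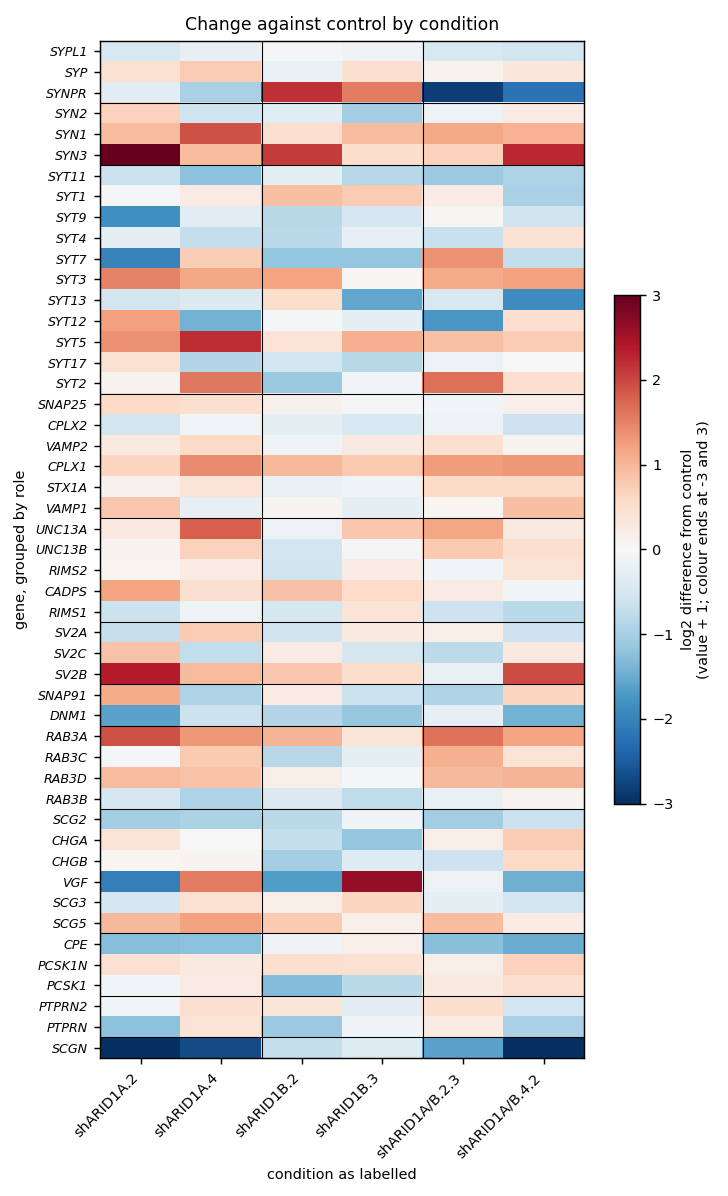
Log2 difference of the normalised value plus 1 from the control mean for 49 genes (rows, grouped by role) in the 6 silenced conditions (columns), as colour with the scale ending at -3 and 3. SYN1, SYN3 and RAB3A are red in all columns, SCGN is blue in all columns, and VGF, SYT7 and SYT12 change colour between the conditions of a label.

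The synapsins coat vesicles and tether them in the reserve pool, and 2 of the 3 rose everywhere. SYN1 (ENSG00000008056.14, chrX:47571898-47619943, minus strand, GRCh38) read 224, 227 and 259.8 in the control, 440.4, 496 and 442 in shARID1A.2, 907, 912 and 868 in shARID1A.4, 325, 355 and 309 in shARID1B.2, 469, 451 and 439 in shARID1B.3, 539, 535 and 485 in shARID1A/B.2.3 and 495, 464 and 496 in shARID1A/B.4.2. No silenced library of any condition overlapped the control. The largest rise was in shARID1A.4 (log2 difference 1.92 ± 0.066 (SE), adjusted p = 1.77e-18), a 3.77-fold change, and the smallest in shARID1B.2 (log2 difference 0.47 ± 0.066 (SE), adjusted p = 8.68e-07).

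SYN3 (ENSG00000185666.15, chr22:32512552-33058372, minus strand) was scarce in the control and rose most in the libraries labelled shARID1A.2. Its values were 17.6, 16.8 and 18.5 in the control, 189, 191 and 189 in shARID1A.2, 40.8, 39.2 and 26.9 in shARID1A.4, 93.7, 68.3 and 74.7 in shARID1B.2, 30.9, 29.4 and 19 in shARID1B.3, 30.4, 29.2 and 28.2 in shARID1A/B.2.3 and 89.3, 88.1 and 88 in shARID1A/B.4.2. All silenced libraries lay above the control, by 10.2-fold in shARID1A.2 (log2 difference 3.35 ± 0.18 (SE), adjusted p = 1.38e-14), 4.8-fold in shARID1A/B.4.2 and 4.25-fold in shARID1B.2. In shARID1B.3 the difference of 0.53 (adjusted p = 0.0133) did not pass under all settings. It was 0.57 with DESeq2 (adjusted p = 0.0842), had an adjusted p of 0.0941 from limma with only the compared libraries in the fit, and was 0.41 and 0.44 without replicate 1 and without replicate 2 of that condition (adjusted p = 0.0794 and 0.0633, limma). SYN2, the third synapsin, ranged from -1.01 in shARID1B.3 to 0.70 in shARID1A.2 on the log2 scale, and its changes passed the test in both directions.

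The tetraspan proteins of the vesicle membrane comprise synaptophysin (SYP), synaptoporin (SYNPR) and the more widely expressed SYPL1. SYP, a routine marker of neuroendocrine tumours, rose in 5 conditions and fell in shARID1B.2, between -0.23 and 0.76 on the log2 scale. SYPL1 fell in 5, with log2 differences from -0.56 to -0.11, and stood at -0.03 in shARID1B.2 (adjusted p = 0.394). Neither changed over 2-fold in any condition.

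SYNPR (ENSG00000163630.11, chr3:63228315-63616921, plus strand) went opposite ways between labels, which is why it was picked, and is given here as a description. Its values were 9.4, 10.1 and 11.3 in the control, 4.99, 11.3 and 8.91 in shARID1A.2, 5.83, 2.38 and 6.99 in shARID1A.4, 52.5, 48.6 and 49.8 in shARID1B.2, 30.9, 34.2 and 29.4 in shARID1B.3, 1.01, 0 and 0.97 in shARID1A/B.2.3 and 1.82, 1.54 and 0.94 in shARID1A/B.4.2. All 6 libraries labelled shARID1B lay above the control range, all 6 labelled shARID1A/B lay below it, and the 6 labelled shARID1A lay between 2.38 and 11.33, around it or below it. These are few reads: over the 3 libraries of a condition, 28 in the control, 158 in shARID1B.2, 101 in shARID1B.3, 25 in shARID1A.2, 15 in shARID1A.4, 2 in shARID1A/B.2.3 and 5 in shARID1A/B.4.2. As ratios to the control, shARID1B.2 stood at 4.9, shARID1B.3 at 3.05, shARID1A.2 at 0.79 and shARID1A.4 at 0.507. At the low end were shARID1A/B.4.2 at 0.14 and shARID1A/B.2.3 at 0.0653. These ratios rest on few reads and were not tested, since the gene was picked for such values. On the log2(value + 1) scale the differences from the control were 2.19 and 1.53 in shARID1B.2 and shARID1B.3 and -2.83 and -2.22 in shARID1A/B.2.3 and shARID1A/B.4.2, and the last 2 came to -1.43 and -1.25 with a pseudocount of 5.

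SCGN (ENSG00000079689.14, chr6:25652201-25701783, plus strand) encodes secretagogin, an EF-hand calcium sensor of neuroendocrine cells, and was picked for its fall. The values were 267, 222 and 241 in the control, 9.97, 6.18 and 7.8 in shARID1A.2, 28.2, 64.2 and 26.9 in shARID1A.4, 148, 140.1 and 155 in shARID1B.2, 169, 184 and 190.0 in shARID1B.3, 70.9, 72.9 and 93.4 in shARID1A/B.2.3 and 18.2, 13.1 and 10.3 in shARID1A/B.4.2. Every silenced library lay below the lowest control library. The mean went from 243 ± 22.6 (SD, n = 3) in the control to 7.98 ± 1.9 in shARID1A.2 and 13.9 ± 4.01 in shARID1A/B.4.2, and only to 148 ± 7.33 and 181 ± 10.7 in shARID1B.2 and shARID1B.3. These are log2 differences of -4.78, -4.07, -0.71 and -0.42, with -2.70 in shARID1A.4 and -1.62 in shARID1A/B.2.3. The order of the means was shARID1A.2, shARID1A/B.4.2, shARID1A.4, shARID1A/B.2.3, shARID1B.2, shARID1B.3 and control, and library ranges of neighbours in this order did not overlap.

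**Figure D3:**
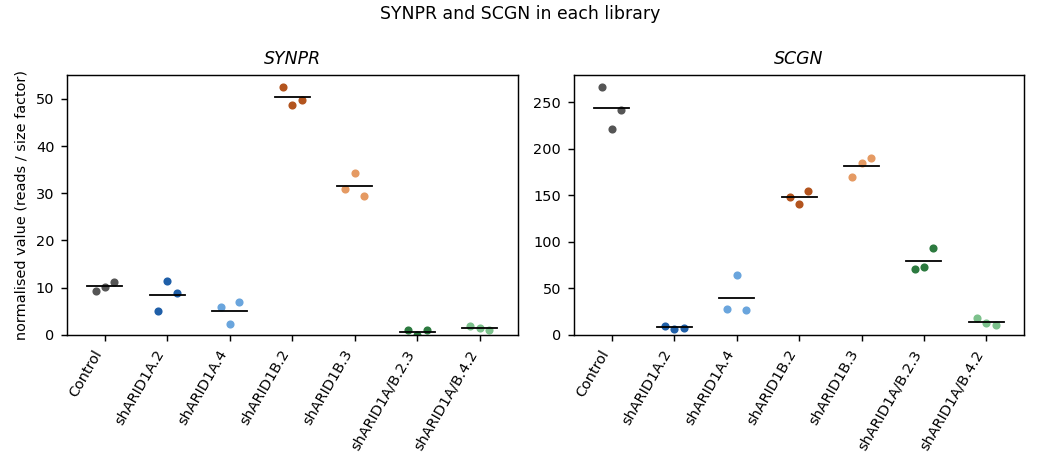
Normalised value of SYNPR (left) and SCGN (right) in each of 21 libraries, with points for libraries and bars for the mean of 3, on linear axes from 0. SYNPR is highest in the libraries labelled shARID1B and near 0 in those labelled shARID1A/B, and SCGN is highest in the control.

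The genes with the condition profile most like these, by Pearson r of log2(value + 1) over the 7 condition means, were LMO7 (r = 0.986), ZNF7 (0.986) and PER3 (0.985) for SYNPR, and ASNSD1 (0.992), HLX (0.988) and ITPKB (0.988) for SCGN. The condition means of LMO7 lay between 204.9 and 429.3 and those of ASNSD1 between 2550 and 2921, so that likeness of shape came with changes of very different size. They were the highest of 13675 genes compared with SYNPR and of 13674 compared with SCGN. With so many genes searched and 7 points from shared control and hairpin libraries, these correlations are descriptions.

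Synaptotagmins include the calcium sensors of release as well as members that do not bind calcium, and their genes moved in different directions. SYT5, found on dense-core granules and synaptic vesicles, rose in all conditions. It read 69.3, 77.2 and 64.7 in the control, 190.3, 192 and 165 in shARID1A.2, 333, 310.4 and 343 in shARID1A.4, 111, 83.3 and 87.1 in shARID1B.2, 162, 144 and 141 in shARID1B.3, 124, 134 and 129 in shARID1A/B.2.3 and 122, 117 and 113 in shARID1A/B.4.2. No silenced library overlapped the control, and the rise was 4.63-fold in shARID1A.4 (log2 difference 2.21 ± 0.11 (SE), adjusted p = 1.69e-15) and 2.57-fold in shARID1A.2 (log2 difference 1.36 ± 0.11 (SE), adjusted p = 2.52e-11).

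SYT3, a sensor of high calcium affinity, gave 82.2, 85.1 and 67.8 in the control, 248, 202 and 214 in shARID1A.2, 171, 193 and 161 in shARID1A.4, 198, 162 and 177 in shARID1B.2, 94.6, 74.1 and 72.5 in shARID1B.3, 173, 166 and 173 in shARID1A/B.2.3 and 193, 175 and 176 in shARID1A/B.4.2. It rose more than 2-fold in 5 conditions, by 1.12 to 1.49 on the log2 scale, and the libraries of shARID1B.3 overlapped the control (log2 difference 0.03 ± 0.12 (SE), adjusted p = 0.82). SYT2, a fast sensor of small vesicles, gave 70.5, 81.7 and 105 in the control, 81.4, 109 and 80.2 in shARID1A.2, 247, 263 and 254 in shARID1A.4, 32.4, 38.2 and 45.4 in shARID1B.2, 84.6, 68.4 and 86.3 in shARID1B.3, 270.4, 273 and 265 in shARID1A/B.2.3 and 141, 98.1 and 124 in shARID1A/B.4.2. It rose over 2-fold in shARID1A.4 (log2 difference 1.58 ± 0.16 (SE), adjusted p = 1.86e-09) and shARID1A/B.2.3 (log2 difference 1.66 ± 0.16 (SE), adjusted p = 8.91e-10) and fell in shARID1B.2 (log2 difference -1.12 ± 0.16 (SE), adjusted p = 8.36e-07), while shARID1A.2, shARID1B.3 and shARID1A/B.4.2 overlapped the control. Its smaller difference in shARID1A/B.4.2 (0.50, adjusted p = 0.00672) had adjusted p of 0.0554 and 0.0527 from limma without control replicate 1 and without replicate 1 of that condition.

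SYT7, the slow, high-affinity sensor of granule exocytosis, split the conditions of 2 labels. Its values were 163, 175 and 170.5 in the control, 44.9, 35 and 45.7 in shARID1A.2, 270.0, 289 and 285 in shARID1A.4, 77, 68.3 and 80 in shARID1B.2, 86.6, 65.6 and 74.3 in shARID1B.3, 424, 438 and 433 in shARID1A/B.2.3 and 120.2, 87.3 and 101 in shARID1A/B.4.2. The libraries of shARID1A.4 and shARID1A/B.2.3 lay above the control, and all others lay below it. The fall was to 0.25 of the control in shARID1A.2 (log2 difference -2.00 ± 0.12 (SE), adjusted p = 1.67e-13), and the rise 2.54-fold in shARID1A/B.2.3 (log2 difference 1.34 ± 0.12 (SE), adjusted p = 4.64e-10).

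SYT12, which lacks calcium-binding residues, moved the opposite way to SYT7 in all conditions labelled shARID1A or shARID1A/B. It read 153, 124 and 181 in the control, 365, 374 and 334 in shARID1A.2, 55.4, 60.6 and 50.9 in shARID1A.4, 160.2, 144 and 133 in shARID1B.2, 120.5, 110.2 and 138 in shARID1B.3, 48.6, 42.7 and 40.9 in shARID1A/B.2.3 and 216, 199 and 229 in shARID1A/B.4.2. It rose in shARID1A.2 (log2 difference 1.24 ± 0.12 (SE), adjusted p = 2.37e-09) and fell in shARID1A.4 (log2 difference -1.43 ± 0.12 (SE), adjusted p = 1.82e-10) and shARID1A/B.2.3 (log2 difference -1.76 ± 0.12 (SE), adjusted p = 4.16e-12). The difference of -0.30 in shARID1B.3 (adjusted p = 0.0396) lost the call without control replicate 1 or 3 or without replicate 1 or 2 of that condition, with adjusted p of 0.0826 to 0.265 from limma. It also lost the call with all libraries kept, under the 3 other scalings (0.0568 to 0.0937), without the filter on low counts (0.0652), with only the compared libraries (0.107) and with DESeq2 (0.0556), and shARID1B.3 overlapped the control.

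SYT13, another member without calcium-binding residues, gave 75.2, 85.1 and 90.4 in the control, 56.5, 57.7 and 56.8 in shARID1A.2, 57.3, 67.8 and 58.9 in shARID1A.4, 124, 112 and 125 in shARID1B.2, 31.9, 19.9 and 33.7 in shARID1B.3, 60.8, 55.2 and 62.3 in shARID1A/B.2.3 and 22.8, 17.8 and 25.3 in shARID1A/B.4.2. It fell over 2-fold in shARID1A/B.4.2 (log2 difference -1.89 ± 0.17 (SE), adjusted p = 4.74e-10) and shARID1B.3 (log2 difference -1.55 ± 0.17 (SE), adjusted p = 2.33e-08) and rose in shARID1B.2 (log2 difference 0.53 ± 0.17 (SE), adjusted p = 0.00947). The smaller fall in shARID1A.4 (-0.44) lost the call without control replicate 2 or 3 or without replicate 1 or 3 of that condition, with adjusted p of 0.0579 to 0.0856 from limma, and with scaling by the upper quartile (0.0663). That in shARID1A/B.2.3 (-0.48) lost it without control replicate 3 or replicate 2 of that condition, with adjusted p of 0.0603 and 0.0554. The fall in shARID1A.2 lost the call with scaling to total reads (-0.37, adjusted p = 0.0519, limma) and by the upper quartile (-0.36, 0.0602). Of the 6 conditions, shARID1B.2 alone lay above the control range.

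SYT11, which does not bind calcium and acts in membrane retrieval, was the most abundant synaptotagmin per length and fell in all conditions. Its values were 7233, 6954 and 7063 in the control, 4419.9, 4673 and 4414 in shARID1A.2, 2906, 3147 and 2937 in shARID1A.4, 5996, 5824 and 5797 in shARID1B.2, 3889, 3995 and 3941 in shARID1B.3, 3414, 3233 and 3307 in shARID1A/B.2.3 and 3867, 3696 and 3636 in shARID1A/B.4.2. No silenced library reached the control, and the lowest values were in shARID1A.4 (log2 difference -1.24 ± 0.031 (SE), adjusted p = 3.37e-21). SYT1, the main sensor of fast release, rose in shARID1B.2 (0.90), shARID1B.3 (0.77), shARID1A.4 (0.25) and shARID1A/B.2.3 (0.22) and fell in shARID1A/B.4.2 (-0.96). SYT9 fell most in shARID1A.2 (-1.84, 3.58-fold lower), and ranged elsewhere from -0.82 to 0.04. SYT4, which is regulated by activity in neurons, fell in 5 conditions and rose in shARID1A/B.4.2, from -0.81 to 0.44. SYT17 ranged from -0.87 to 0.46.

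The genes of the SNARE proteins stayed within 2-fold of the control, while complexin 1 rose. SNAP25, VAMP1, VAMP2 and STX1A encode the fusion complex. Their log2 differences over the 6 conditions spanned -0.07 to 0.60 for SNAP25, -0.30 to 0.89 for VAMP1, -0.11 to 0.58 for VAMP2 and -0.22 to 0.58 for STX1A. CPLX1, a clamp and activator that binds the assembled SNARE complex, read 339, 307 and 315 in the control, 519, 467 and 519 in shARID1A.2, 868, 822 and 875 in shARID1A.4, 608, 607 and 667 in shARID1B.2, 629, 522 and 512 in shARID1B.3, 794, 706 and 799.8 in shARID1A/B.2.3 and 724, 811 and 844 in shARID1A/B.4.2. All silenced libraries exceeded the control, by 2.66-fold in shARID1A.4 (log2 difference 1.41 ± 0.073 (SE), adjusted p = 6.58e-15) and 2.47-fold in shARID1A/B.4.2 (log2 difference 1.30 ± 0.073 (SE), adjusted p = 4.34e-14). Its paralogue CPLX2 fell in 5 conditions and ranged from -0.61 to -0.07.

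Among the priming and active-zone genes, UNC13A had the largest rise. This factor, which opens syntaxin for SNARE assembly, read 1929, 1993 and 1928 in the control, 2443, 2369 and 2407 in shARID1A.2, 6760.0, 6707 and 6865 in shARID1A.4, 1738, 1724 and 1741 in shARID1B.2, 3482, 3329 and 3395 in shARID1B.3, 4289, 4450.4 and 4309 in shARID1A/B.2.3 and 2589, 2197 and 2379.9 in shARID1A/B.4.2. It rose 3.47-fold in shARID1A.4 (log2 difference 1.80 ± 0.037 (SE), adjusted p = 7.62e-23) and 2.23-fold in shARID1A/B.2.3 (log2 difference 1.16 ± 0.037 (SE), adjusted p = 6.16e-19). Only shARID1B.2 lay below the control (log2 difference -0.17 ± 0.037 (SE), adjusted p = 0.00033), a difference that was -0.03 (adjusted p = 0.474, limma) when libraries were scaled to their total reads and -0.05 (0.248) by the upper quartile. UNC13B ranged from -0.55 to 0.77, the scaffold genes RIMS1 from -0.80 to 0.39 and RIMS2 from -0.60 to 0.42, and CADPS, a priming factor of dense-core granules, from -0.07 to 1.19, with its rise over 2-fold in shARID1A.2 alone (log2 difference 1.19 ± 0.039 (SE), adjusted p = 4.6e-19).

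The SV2 glycoproteins are shared by synaptic vesicles and granules. SV2A and SV2C changed in all 6 conditions and never in the same direction within a label, as given below. SV2B lay between 0 and 11.1 in all libraries. Of the endocytic genes, DNM1, the neuronal dynamin that cuts vesicles from the membrane, read 1922, 2118 and 2087 in the control, 715, 622 and 687 in shARID1A.2, 1392, 1174 and 1383 in shARID1A.4, 1103, 1113 and 1134 in shARID1B.2, 967, 863 and 974 in shARID1B.3, 1634, 1824 and 1742 in shARID1A/B.2.3 and 805, 738 and 748 in shARID1A/B.4.2. Every silenced library was below the control, with the largest fall in shARID1A.2 (log2 difference -1.60 ± 0.063 (SE), adjusted p = 2.39e-17) and the smallest in shARID1A/B.2.3 (log2 difference -0.24 ± 0.063 (SE), adjusted p = 0.00182). SNAP91, the clathrin adaptor AP180, moved both ways, from -0.93 to 1.11.

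RAB3 proteins mark vesicles and granules ready to dock. RAB3A read 357, 351 and 332 in the control, 1349, 1292 and 1276 in shARID1A.2, 845, 865 and 870.2 in shARID1A.4, 709.9, 682 and 725 in shARID1B.2, 469, 429 and 440.4 in shARID1B.3, 1070.3, 1083 and 1085 in shARID1A/B.2.3 and 795, 786 and 801 in shARID1A/B.4.2. No condition overlapped the control, and the rise was largest in shARID1A.2, at 3.76-fold (log2 difference 1.91 ± 0.042 (SE), adjusted p = 1.51e-22), and smallest in shARID1B.3 (log2 difference 0.36 ± 0.042 (SE), adjusted p = 4.29e-08). RAB3D rose in 5 conditions, while shARID1B.3 stood at -0.06 (adjusted p = 0.382), and reached 1.01 in shARID1A/B.4.2. RAB3C ranged from -0.82 to 1.06 and RAB3B, the scarcest of the 4, from -0.93 to 0.10.

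Granins are the matrix proteins of dense-core granules, and their genes moved in different directions. SCG2 (secretogranin II), the most abundant member, read 39379, 38545 and 39469.7 in the control, 18918, 19907 and 19063 in shARID1A.2, 19516, 20712 and 20399 in shARID1A.4, 22251, 22657 and 22421 in shARID1B.2, 35609, 36369 and 37184 in shARID1B.3, 19025, 19207 and 19128 in shARID1A/B.2.3 and 24821, 25625 and 24922 in shARID1A/B.4.2. All silenced libraries lay below the control, close to a 2-fold fall in shARID1A/B.2.3 (log2 difference -1.03 ± 0.023 (SE), adjusted p = 4.45e-22) and shARID1A.2 (log2 difference -1.02 ± 0.023 (SE), adjusted p = 2.96e-22). The fall in shARID1B.3 was small (log2 difference -0.11 ± 0.023 (SE), adjusted p = 0.000316) and was -0.05 (adjusted p = 0.0705, limma) with scaling by the upper quartile. SCG5, a chaperone of the convertase PCSK2, rose in all conditions, from 0.16 to 1.20, and SCG3, which binds CHGA, ranged from -0.57 to 0.66.

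VGF, the precursor of several neuropeptides, had the widest spread of condition means among the 47 genes tested, from -2.05 to 2.65 as log2 differences from the control. Its values were 4416, 4522 and 4669 in the control, 1147, 1052 and 1092 in shARID1A.2, 13650.1, 13265 and 12697 in shARID1A.4, 1333, 1382 and 1532 in shARID1B.2, 30655, 29358 and 25490.0 in shARID1B.3, 4023, 3924 and 4077 in shARID1A/B.2.3 and 1437, 1734 and 1797 in shARID1A/B.4.2. In shARID1B.3 it rose 6.26-fold (log2 difference 2.65 ± 0.066 (SE), adjusted p = 7.47e-21) and in shARID1A.4 2.91-fold (log2 difference 1.54 ± 0.066 (SE), adjusted p = 1.22e-16). It fell 4.13-fold in shARID1A.2 (log2 difference -2.05 ± 0.066 (SE), adjusted p = 3.62e-19), 3.21-fold in shARID1B.2 (log2 difference -1.68 ± 0.066 (SE), adjusted p = 5e-17) and 2.75-fold in shARID1A/B.4.2 (log2 difference -1.46 ± 0.066 (SE), adjusted p = 4.89e-16). The libraries of the 6 conditions did not overlap the control, and in shARID1A/B.2.3 the difference of -0.18 (adjusted p = 0.0191) had an adjusted p of 0.0679 from limma without control replicate 3 and 0.0595 without replicate 2 of that condition. That difference was -0.14 (adjusted p = 0.0696, limma) with scaling to total reads and -0.10 (0.167) by the upper quartile.

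CHGA (chromogranin A), the clinical marker of neuroendocrine tumours, read 18943, 19823 and 19832 in the control, 25748, 26464 and 26021 in shARID1A.2, 19714, 20174 and 19228 in shARID1A.4, 12305, 10912 and 12302 in shARID1B.2, 10553, 7086 and 8816 in shARID1B.3, 23392, 21169 and 22582 in shARID1A/B.2.3 and 35542, 30407 and 34217 in shARID1A/B.4.2. It fell in both conditions labelled shARID1B (log2 difference -1.17 ± 0.083 (SE), adjusted p = 6.68e-12 in shARID1B.3) and rose in shARID1A.2, shARID1A/B.2.3 and shARID1A/B.4.2 (log2 difference 0.77 ± 0.083 (SE), adjusted p = 8.9e-09 in the last). CHGB fell in shARID1B.2 (-1.02), shARID1B.3 (-0.38) and shARID1A/B.2.3 (-0.63) and rose in shARID1A/B.4.2 (0.57).

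CPE, PCSK1 and PCSK1N belong to the processing of granule cargo. CPE, the carboxypeptidase that trims prohormone ends and serves as a sorting receptor, read 3373, 3373 and 3371 in the control, 1410.1, 1327 and 1414 in shARID1A.2, 1354, 1440.1 and 1549 in shARID1A.4, 3156, 3046 and 3071 in shARID1B.2, 3959, 3675 and 3844 in shARID1B.3, 1503, 1373 and 1373 in shARID1A/B.2.3 and 1217, 1187 and 1212 in shARID1A/B.4.2. It fell in the 4 conditions labelled shARID1A or shARID1A/B, by 2.8-fold in shARID1A/B.4.2 (log2 difference -1.48 ± 0.042 (SE), adjusted p = 3.52e-20) and 2.44-fold in shARID1A.2 (log2 difference -1.29 ± 0.042 (SE), adjusted p = 4.34e-19), and their libraries were all below those of the other 3 conditions. The small fall in shARID1B.2 (log2 difference -0.13 ± 0.042 (SE), adjusted p = 0.0103) became 0.01 (adjusted p = 0.839, limma) with scaling to total reads and -0.0074 (0.883) by the upper quartile, and shARID1B.3 lay above the control (log2 difference 0.18 ± 0.042 (SE), adjusted p = 0.000515). PCSK1, the first convertase to cut prohormones, read 297, 303 and 307 in the control, 258, 290.5 and 309.6 in shARID1A.2, 351, 375 and 356 in shARID1A.4, 129, 111 and 131 in shARID1B.2, 196, 153 and 168 in shARID1B.3, 417, 338 and 352 in shARID1A/B.2.3 and 432, 414 and 443 in shARID1A/B.4.2. It fell in shARID1B.2 (log2 difference -1.29 ± 0.091 (SE), adjusted p = 6.01e-12) and shARID1B.3 (log2 difference -0.82 ± 0.091 (SE), adjusted p = 2.71e-08) and rose in shARID1A.4, shARID1A/B.2.3 and shARID1A/B.4.2. PCSK1N, the inhibitor of PCSK1, rose in 5 conditions, with log2 differences of 0.19 to 0.68 over all 6.

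PTPRN (IA-2) and PTPRN2 (phogrin) are phosphatase-like proteins of the granule membrane. PTPRN read 864, 856 and 784 in the control, 371, 329 and 372 in shARID1A.2, 1082, 1113 and 1123 in shARID1A.4, 404, 368 and 407 in shARID1B.2, 749, 807 and 787 in shARID1B.3, 972, 986 and 945 in shARID1A/B.2.3 and 421, 422 and 441 in shARID1A/B.4.2. It fell over 2-fold in shARID1A.2 (log2 difference -1.22 ± 0.053 (SE), adjusted p = 1.85e-16) and shARID1B.2 (log2 difference -1.09 ± 0.053 (SE), adjusted p = 4.78e-15), fell in shARID1A/B.4.2 (-0.96), rose in shARID1A.4 (0.41) and shARID1A/B.2.3 (0.21), and overlapped the control in shARID1B.3. PTPRN2 ranged from -0.57 to 0.52.

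The promoters of VGF, CHGA, PCSK1 and SYN1 are printed because they hold the cAMP response element TGACGTCA, the letters bound by CREB, and their genes moved in different ways. Of 40 members with a RefSeq promoter window (GRCh38.p14, from 250 bases before to 50 bases after the start), these 4 held the element on either strand, and 1.85% of 35116 windows did. SYN1 alone also held AGCACC and GGACAG with 2 bases of any kind between them, the letters searched for RE1, the element bound by the repressor REST, which 0.057% of windows held. Members are counted as genes with a match in any of their windows, while both shares are of single windows, so they are not like for like. The stretches run 5′ to 3′ along the gene's strand, with the elements in capitals.
VGF, chr7:101165570-101165699, minus strand: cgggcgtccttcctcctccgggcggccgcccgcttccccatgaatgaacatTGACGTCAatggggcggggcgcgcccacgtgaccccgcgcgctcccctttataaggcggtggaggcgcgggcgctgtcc
CHGA, chr14:92923020-92923149, plus strand: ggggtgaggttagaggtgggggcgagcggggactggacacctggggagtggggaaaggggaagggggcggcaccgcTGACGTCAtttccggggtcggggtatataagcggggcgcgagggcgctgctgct
PCSK1, chr5:96433249-96433378, minus strand: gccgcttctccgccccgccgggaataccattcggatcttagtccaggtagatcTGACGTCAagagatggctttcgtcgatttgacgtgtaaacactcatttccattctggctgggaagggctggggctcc
SYN1, chrX:47619988-47620107, minus strand: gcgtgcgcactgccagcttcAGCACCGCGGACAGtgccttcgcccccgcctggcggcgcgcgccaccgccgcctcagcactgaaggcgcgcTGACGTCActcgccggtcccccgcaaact
The 4 genes with the element did not share a profile. SYN1 rose in all 6 conditions, CHGA and PCSK1 both fell in shARID1B.2 and shARID1B.3, and VGF fell in the first of these and rose in the second. A match of letters describes the sequence and is no evidence of binding.

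The labelled groups were compared directly as well, which uses no control library. Between shARID1A and shARID1B, 41 (67.3%) of 47 genes differed, 31 higher (34.6%) and 10 lower (32.8%) in shARID1A, and 5 (6.03%) did so over 2-fold, 4 higher (3.09%) and 1 lower (2.94%). Between shARID1A/B and shARID1B, 40 (70.2%) of 47 genes differed, 27 higher (35.1%) and 13 lower (35%) in shARID1A/B, and 8 (8.03%) did so over 2-fold, 5 higher (4.24%) and 3 lower (3.79%). Between shARID1A and shARID1A/B, 37 (59.2%) of 47 genes differed, 24 higher (30.5%) and 13 lower (28.7%) in shARID1A, and 0 (3.62%) did so over 2-fold, 0 higher (1.5%) and 0 lower (2.13%). The median log2 differences of the set were 0.35, 0.20 and 0.11, against 0.02, -0.000838 and 0.02 for all genes.

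These tests average 2 hairpin conditions per label and measure only the spread between libraries of 1 condition. With the 6 libraries of a label taken as 1 group, differences between hairpins count as spread. In that fit 21, 20 and 5 of the 47 genes differed in these 3 comparisons, while the shares of all genes were 21.4%, 27.9% and 9.31%. Groups of 6 libraries did not overlap for 15, 18 and 5 of the 47 genes, while the shares of all genes were 14.4%, 17.7% and 7.93%. Each label holds only 2 hairpin conditions, whose 3 libraries are not independent trials of the label, so p-values of this pooled fit are too small as statements about a label. This setting was chosen after the data had been seen.

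CPE, CHGA, PCSK1, RAB3A, RAB3C and RAB3D were among the genes that differed between shARID1B and both other labels under both fits. Under the pooled fit VGF differed in neither comparison (adjusted p = 0.631 and 0.325, limma), SCG3 did not differ between shARID1A and shARID1B (0.0929) and SCG5 did not between shARID1A/B and shARID1B (0.68). CPE was lower in shARID1A than in shARID1B (log2 difference -1.28 ± 0.029 (SE), adjusted p = 1.35e-21, and adjusted p = 1.85e-09 with the libraries pooled by label) and lower in shARID1A/B (log2 difference -1.40 ± 0.029 (SE), adjusted p = 1.52e-22, and adjusted p = 1.68e-10 with the libraries pooled by label). CHGA was higher in shARID1A than in shARID1B (log2 difference 1.16 ± 0.058 (SE), adjusted p = 6.03e-15, and adjusted p = 1.4e-05 with the libraries pooled by label) and in shARID1A/B than in shARID1B (1.43, and adjusted p = 7.48e-07 with the libraries pooled by label). PCSK1 followed CHGA, higher by 1.14 in shARID1A (adjusted p = 2.51e-06 with the libraries pooled by label) and 1.44 in shARID1A/B (adjusted p = 7.84e-08 with the libraries pooled by label).

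RAB3C read 1388, 1344 and 1318 in the control, 1316, 1334 and 1263 in shARID1A.2, 2303, 2340.3 and 2385 in shARID1A.4, 776, 733 and 778 in shARID1B.2, 1092, 1059 and 1177 in shARID1B.3, 2814, 2776 and 2831 in shARID1A/B.2.3 and 1884, 1657 and 1829 in shARID1A/B.4.2. All its shARID1B libraries lay below all silenced libraries of the other labels, with differences of 0.93 (adjusted p = 0.002 with the libraries pooled by label) and 1.28 (adjusted p = 6.6e-05 with the libraries pooled by label). RAB3D did so too, by 0.84 and 0.93. SYT1 read 2739, 2774 and 2849 in the control, 2657, 2652 and 2729.5 in shARID1A.2, 3250.4, 3358 and 3345 in shARID1A.4, 5267, 5062 and 5250.0 in shARID1B.2, 4675, 4821 and 4777 in shARID1B.3, 3214, 3232 and 3277 in shARID1A/B.2.3 and 1465, 1363 and 1463 in shARID1A/B.4.2. Here shARID1B was the high label, and shARID1A/B stood below it (log2 difference -1.21, adjusted p = 0.000152 with the libraries pooled by label). Between shARID1A and shARID1A/B, the 5 genes that differed under the pooled fit were SYT5, SNAP25, STX1A, CADPS and RAB3B, and the largest, SYT5, differed by 0.98 (adjusted p = 0.00242 with the libraries pooled by label).

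**Figure D4:**
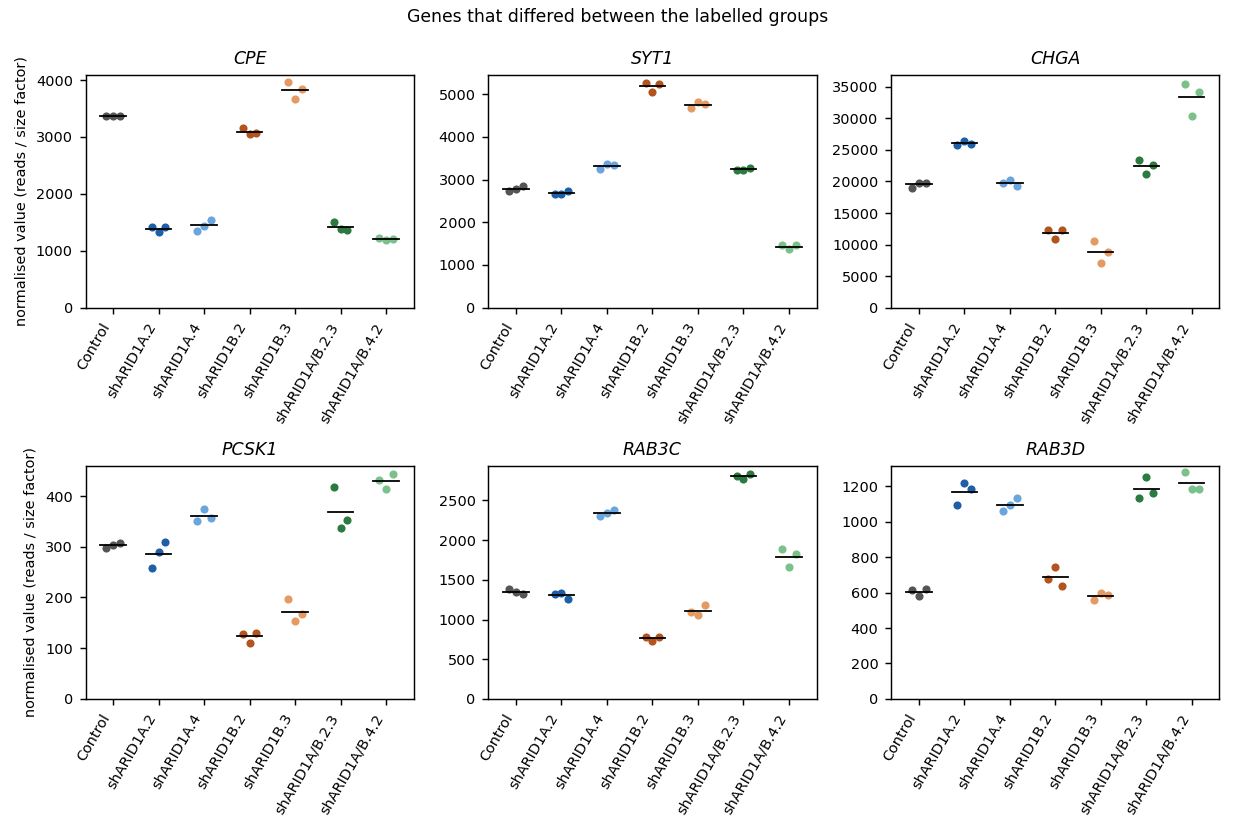
Normalised value of CPE, SYT1, CHGA, PCSK1, RAB3C and RAB3D in each of 21 libraries (points) with the mean of 3 (bars), on linear axes from 0. The 6 libraries labelled shARID1B are separate from the 12 labelled shARID1A or shARID1A/B in all panels.

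The conditions of 1 label also differed from each other, a comparison added after the values had been seen. Between shARID1A.2 and shARID1A.4, 42 (75.8%) of 47 genes differed, 16 higher (38.4%) and 26 lower (37.3%) in shARID1A.2, and 15 (23.9%) did so over 2-fold, 8 higher (14.3%) and 7 lower (9.56%). With scaling to total reads the split was 19 higher and 20 lower. Between shARID1B.2 and shARID1B.3, 41 (66%) of 47 genes differed, 21 higher (33%) and 20 lower (33%) in shARID1B.2, and 5 (13.7%) did so over 2-fold, 3 higher (8.48%) and 2 lower (5.2%). Between shARID1A/B.2.3 and shARID1A/B.4.2, 39 (74.9%) of 47 genes differed, 21 higher (37.1%) and 18 lower (37.8%) in shARID1A/B.2.3, and 15 (22.3%) did so over 2-fold, 8 higher (9.57%) and 7 lower (12.7%). With scaling to total reads the last split was 19 higher and 22 lower. Of the genes that changed against the control in both conditions of a label, 11 of 35, 11 of 35 and 11 of 37 went opposite ways, or 31.4%, 31.4% and 29.7%, and among all genes 28.5%, 30.2% and 34.3% did. The share for the set was thus close to that of the transcriptome.

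SNAP91, SV2A and SV2C went opposite ways within all 3 labels. SNAP91 averaged 3359 ± 93.1 (SD, n = 3) in the control, 7269 ± 51.7 in shARID1A.2 and 1760.5 ± 71.5 in shARID1A.4 (log2 difference 2.05 ± 0.043 (SE), adjusted p = 6.03e-23 between them). It averaged 3968 ± 67.4 in shARID1B.2, 2136 ± 174 in shARID1B.3, 1788 ± 74.5 in shARID1A/B.2.3 and 5262 ± 148 in shARID1A/B.4.2. Thus shARID1A.2, shARID1B.2 and shARID1A/B.4.2 stood above the control and the other 3 below it.

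SV2C had the same signs, with 1744 ± 66.3 in the control, 3167 ± 30.6 in shARID1A.2, 1046 ± 42.7 in shARID1A.4, 2051 ± 21.2 in shARID1B.2, 1235 ± 65.6 in shARID1B.3, 1005 ± 31.5 in shARID1A/B.2.3 and 2136 ± 112 in shARID1A/B.4.2. SV2A had the opposite signs, with 3375 ± 84.7 in the control, 2097 ± 74 in shARID1A.2, 5769.8 ± 227 in shARID1A.4, 2219 ± 32.3 in shARID1B.2, 4076 ± 35.9 in shARID1B.3, 3815 ± 82.4 in shARID1A/B.2.3 and 2211 ± 46.5 in shARID1A/B.4.2. The within-label difference was largest for VGF, at -4.33 between shARID1B.2 and shARID1B.3 (20.1-fold, adjusted p = 3.99e-25) and -3.59 between shARID1A.2 and shARID1A.4 (adjusted p = 4.65e-24). SYT7 and SYT12 differed by -2.73 and 2.66 between the latter conditions, and by 2.07 and -2.26 between shARID1A/B.2.3 and shARID1A/B.4.2. For CPE the corresponding differences were -0.06, -0.31 and 0.23 in the order of the 3 labels.

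**Figure D5:**
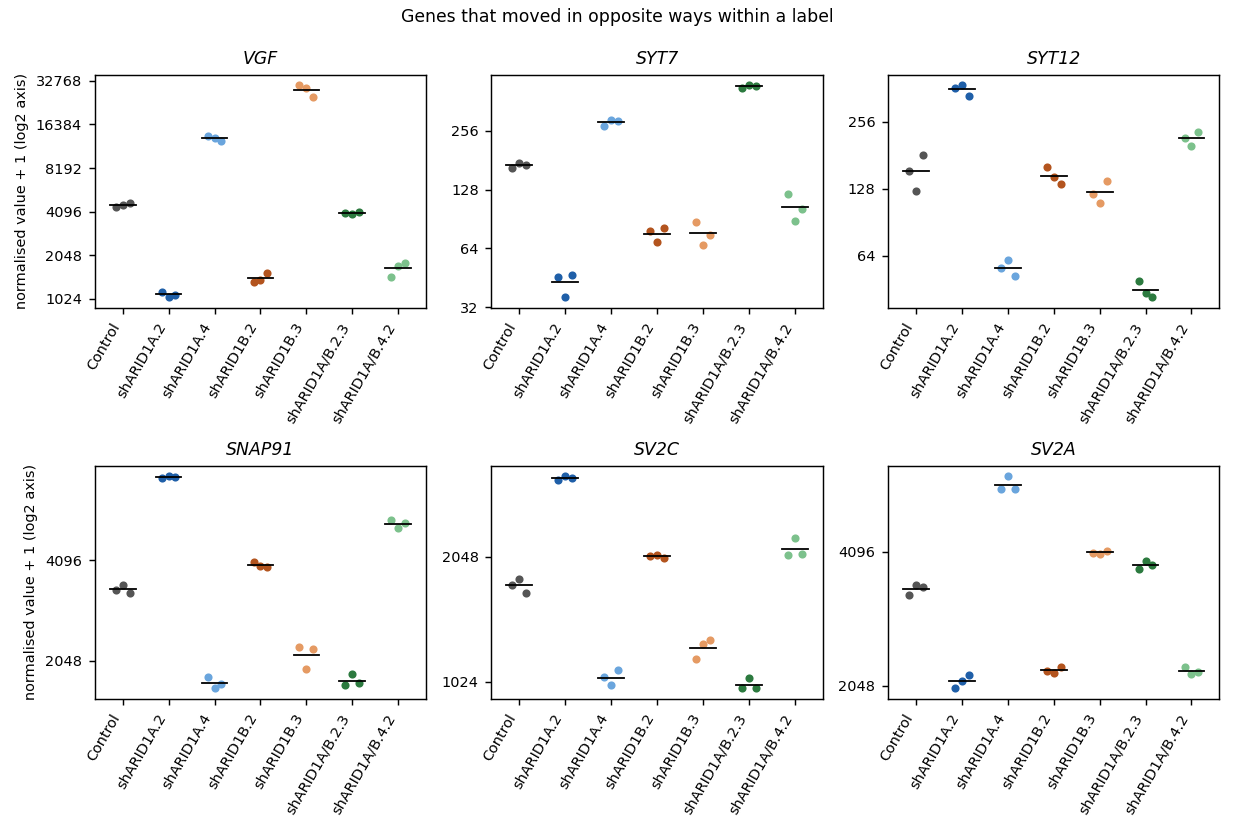
Normalised value plus 1 of VGF, SYT7, SYT12, SNAP91, SV2C and SV2A in each of 21 libraries (points) with the mean of 3 (bars), on log2 axes that differ between panels. The conditions of a label lie on opposite sides of the control in at least 1 label in every panel.

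Other genes of these pathways were taken from a list of 95 further vesicle, SNARE, transporter and neuropeptide genes, of which 81 were tested. Higher and lower calls against the control, with the share of all 18584 genes in brackets, numbered 25 (37.9%) and 43 (38.2%) in shARID1A.2, 33 (37%) and 34 (36.6%) in shARID1A.4, 22 (31.6%) and 34 (34%) in shARID1B.2. They numbered 16 (31.9%) and 41 (32%) in shARID1B.3, 37 (35.2%) and 31 (34%) in shARID1A/B.2.3, and 26 (35.1%) and 31 (36.1%) in shARID1A/B.4.2. Of the 81 genes, the share that changed over 2-fold, with that of all genes in brackets, was 30.9% (24.8%) in shARID1A.2, 29.6% (21.4%) in shARID1A.4, 14.8% (12%) in shARID1B.2, 14.8% (11.8%) in shARID1B.3, 22.2% (16.1%) in shARID1A/B.2.3 and 22.2% (18.4%) in shARID1A/B.4.2. Among those with a mean of at least 50 over all libraries, the largest changes were of CPLX3, CPD and NPY. CPLX3 is a complexin of ribbon synapses, CPD a carboxypeptidase of the trans-Golgi network, and NPY a peptide of sympathetic granules. CPLX3 went from 47 ± 17.1 in the control to 726 ± 81.7 in shARID1A.4 (log2 difference 3.99, adjusted p = 1.56e-12). It also rose in shARID1B.3 (1.60) and shARID1A/B.2.3 (1.86), and fell in shARID1A.2 (-1.30) and shARID1A/B.4.2 (-1.72). CPD went from 2293 ± 98.3 to 342 ± 16.9 in shARID1A.4 (-2.74, adjusted p = 1.53e-23), and to 394 ± 16.6 in shARID1A/B.2.3 (-2.54, adjusted p = 1.14e-22). NPY went from 3447 ± 77.5 to 605 ± 52.8 in shARID1A/B.4.2 (-2.51, adjusted p = 1.64e-22) and 670.0 ± 30.8 in shARID1A.2, and was above the control at 5880.3 ± 119 in shARID1A/B.2.3 (0.77, adjusted p = 3.23e-12).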

How the data were processed

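The values deposited by the authors are a signal, read numbers of each gene scaled by a size factor that is constant within a library. The submitters' processing notes name STAR 2.5.3a, RSEM 1.3.0, DESeq2 1.26.0 and GRCh38. How strand was used in counting is not given in the sources used here. Exons of 15 members overlap a gene on the other strand (SYN1 with ARAF, DNM1 with CIZ1, RAB3A with MPV17L2 among them), which may share reads. Those of 6 members (SYN1, SYT7, SYT17, VAMP2, RIMS2 and RAB3D) overlap a gene on the same strand, where strand cannot separate reads. The kit was stranded. Whole reads were recovered for 100% of values within 0.05 read, with size factors of 0.841 to 1.295. The authors' comparison tables, which hold means, log2 fold changes and p-values, were not used. Reads per library set the precision, which is lowest for genes with few reads such as SYNPR.

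Genes were kept by edgeR 4.0.16 filterByExpr over the 7 conditions. Log2(value + 1) was fitted with limma 3.58.1 with a trend (R 4.3.3), because the deposited values are scaled and not raw counts, and p-values were adjusted over the 18584 genes by the Benjamini-Hochberg method. Differences are on that scale, which understates changes of low genes. The fit was tried first on simulated data in which 200 of 18584 genes changed in 1 condition. It found 198 of them and made 11 false calls. Far fewer genes changed there than were called here, so the fit was not examined for changes this widespread. Libraries are labelled as replicates, but whether these were separate transductions is not given in the sources used here, so p-values measure the spread between libraries. Replicates of a condition differed by more than counting noise in all 21 pairs of libraries. Same-numbered replicates did not deviate together (63 pairs, median r 0.00333, none over 0.1), so no pairing was used. Every member was described by role. All libraries are given for SYNPR, SCGN and the tested members with a mean of at least 50 and changes over 2-fold in 2 or more conditions, and for CHGA, PCSK1, RAB3C and SYT1, which were added after their values were seen. Members and lists were chosen with earlier results of these data known. Positions are from GENCODE release 29. Alternatives were other scalings, filters and pseudocounts, edgeR and DESeq2 1.42.0 on recovered reads, a replicate block, fits on the compared libraries alone, libraries pooled by label, and leaving out each library.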

Additional observations from a re-analysis of the deposited data

Results flagged for a closer look

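The genes below differed over 2-fold between labels in the test of the difference itself, as log2 differences from limma (6 against 6 libraries, averaged over 2 hairpin conditions per label). Between shARID1A and shARID1B these were SYT2 (1.44), SYT5 (1.05), CHGA (1.16), PCSK1 (1.14) and CPE (-1.28). Between shARID1A/B and shARID1B they were SYT1 (-1.21), SYT2 (1.68), SYT7 (1.47), RAB3C (1.28), CHGA (1.43), VGF (-1.3), PCSK1 (1.44) and CPE (-1.4). With libraries pooled by label, VGF between shARID1A/B and shARID1B had an adjusted p = 0.325 and SYT7 one of 0.0548, and these genes lay on opposite sides of the control in the conditions labelled shARID1B (VGF) and shARID1A/B (SYT7).

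SYNPR differed by -4.39 between shARID1A/B and shARID1B, every library of the first below and every library of the second above the control range. This difference was not tested, since the gene was picked for it.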

How the results depend on the processing

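The counts against the control stayed within 1.5 times the values given under all other scalings, filters, pseudocounts and tests. With 1 library left out they ranged from 36 to 44 changed genes over the 6 conditions and from 6 to 16 over 2-fold. Between labels the counts changed when libraries were pooled by label, from 41 to 21 for shARID1A against shARID1B, from 37 to 5 for shARID1A against shARID1A/B and from 40 to 20 for shARID1A/B against shARID1B. Over 2-fold, shARID1A against shARID1A/B gave 0 genes (3.62% of all genes) and 1 with scaling by the upper quartile (SYT5) and with no filter other than 1 read (PCSK2). Leaving out single libraries gave 0 to 1 there: SYT5 without shARID1A.2 replicate 3 or shARID1A.4 replicate 2, SYT7 without shARID1A/B.4.2 replicate 2. CPE in shARID1B.2 turned from -0.13 to 0.0105 with scaling to total reads. That scaling put the median of all genes at 0.20 in shARID1A/B.4.2, 0.19 in shARID1A.2 and 0.15 in shARID1B.2 on the log2 scale (0.02, 0.02 and 0.01 before), and the upper quartile put it at 0.20 in shARID1A.2. Of 97 described values that passed the test, 10 lost it under at least 1 setting, 6 of them with a library left out. The cause was not tested. PTPRN in shARID1B.3 passed without control replicate 3 (-0.14, adjusted p = 0.0387, limma). With the replicate number as a block, all 102 described values kept their side of the threshold, and 39 genes changed in shARID1A.2. The described values counted here leave out CHGA, PCSK1, RAB3C and SYT1, which were added after their values were seen. SYNPR in shARID1A/B.2.3 ranged from -3.93 with DESeq2 to -1.43 with a pseudocount of 5, and its depth of 0 to 1 reads per library there limits any statement on its size.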
